A study of Mus musculus with 18 samples.

Results

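The caveolins, the cavins and Ehd2 build caveolae, the small flask-shaped pits of the plasma membrane. The set was defined by gene symbol and family, with no threshold on a measured value, and held 7 genes (Cav1, Cav2, Cav3, Ehd2, Ptrf, Sdpr and Prkcdbp) out of 52093 gene symbols in the deposited tables. The tables use the older names Ptrf, Sdpr and Prkcdbp for the genes now called Cavin1, Cavin2 and Cavin3. RNA was sequenced from 18 libraries of adult male wild-type C57BL/6 mice that ate a high-fat diet (HFD) through 12 weeks. There were 6 libraries of inguinal white adipocytes (iWAT), 6 of epididymal white adipocytes (eWAT) and 6 of brown adipose tissue (BAT), with no chow-fed, knockout or treated group. The white adipocytes were the floating cells of collagenase-digested fat, whereas BAT was frozen whole, so the BAT libraries hold every cell type of that tissue. BAT was also sequenced on other lanes than the white adipocytes, so that tissue, preparation and lane cannot be told apart in any comparison with BAT. A treatment field in the labels names regular chow for all 18 libraries, while the titles and the design text name HFD, and the libraries are described here by the latter.

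Caveolae are especially abundant in adipocytes, endothelial cells and muscle. Caveolins insert a hairpin into the inner leaflet of the membrane and assemble there with cholesterol. The cavins are cytosolic coat proteins that bind this assembly, and an ATPase, EHD2, sits at the neck of the pit and holds it at the cell surface. Cav1 and Ptrf are needed for caveolae to form in fat, and loss of either causes lipodystrophy in mice and in people.

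Of the 7 genes, 6 were read in every library and Cav3 was close to unread. Cav1, Cav2, Ptrf, Sdpr, Prkcdbp and Ehd2 were all higher in iWAT adipocytes than in eWAT adipocytes and than in BAT. Prkcdbp stood apart from the rest in BAT, where it was 16.4-fold lower than in iWAT adipocytes while the other 5 were 2.11-fold to 3.24-fold lower. In eWAT adipocytes all 6 genes varied together between mice, with the same 2 libraries at the bottom for every gene.

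The promoters of the members other than Cav3 are shown because these genes were all higher in iWAT adipocytes than in eWAT adipocytes and than in BAT. Each sequence runs from 250 bases before to 50 bases after the gene's start in RefSeq (build GRCm38.p6, strand of the gene), and capitals mark the letters of 5 motifs searched on both strands. These were the GC box with the letters GGGCGG, the CCAAT box with those letters alone, the TATA box searched as TATAAA, the core site of nuclear receptors searched as AGGTCA, and the site of TEAD factors searched as CATTCC. Entries were found for 6 of the 7 genes, and the exception was Prkcdbp.
Cav1, chr6:17306085-17306384, + strand: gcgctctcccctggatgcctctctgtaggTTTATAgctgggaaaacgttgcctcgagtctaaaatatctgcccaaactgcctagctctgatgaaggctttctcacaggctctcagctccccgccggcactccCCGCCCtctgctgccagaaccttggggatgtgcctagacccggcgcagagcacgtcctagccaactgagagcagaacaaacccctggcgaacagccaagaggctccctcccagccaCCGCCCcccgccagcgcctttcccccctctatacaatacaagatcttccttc
Cav2, chr6:17280935-17281234, + strand: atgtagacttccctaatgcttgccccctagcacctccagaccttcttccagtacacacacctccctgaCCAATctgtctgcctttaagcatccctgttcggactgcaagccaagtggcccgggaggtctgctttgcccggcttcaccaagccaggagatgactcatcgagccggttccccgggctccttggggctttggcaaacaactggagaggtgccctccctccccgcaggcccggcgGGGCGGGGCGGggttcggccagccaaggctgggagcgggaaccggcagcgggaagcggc
Ptrf (Cavin1), chr11:100970568-100970867, - strand: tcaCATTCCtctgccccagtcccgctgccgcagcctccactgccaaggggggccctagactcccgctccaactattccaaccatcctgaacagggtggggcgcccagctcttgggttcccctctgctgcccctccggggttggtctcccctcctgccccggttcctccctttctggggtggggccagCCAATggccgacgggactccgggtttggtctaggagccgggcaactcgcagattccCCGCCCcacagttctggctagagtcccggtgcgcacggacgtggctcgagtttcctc
Sdpr (Cavin2), chr1:51288876-51289175, + strand: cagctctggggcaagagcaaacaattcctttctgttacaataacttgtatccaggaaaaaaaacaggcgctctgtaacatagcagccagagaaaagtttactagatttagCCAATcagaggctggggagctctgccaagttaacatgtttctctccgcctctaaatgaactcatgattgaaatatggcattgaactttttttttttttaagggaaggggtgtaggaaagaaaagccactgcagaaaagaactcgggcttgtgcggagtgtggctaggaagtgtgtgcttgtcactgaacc
Ehd2, chr7:15967486-15967785, - strand: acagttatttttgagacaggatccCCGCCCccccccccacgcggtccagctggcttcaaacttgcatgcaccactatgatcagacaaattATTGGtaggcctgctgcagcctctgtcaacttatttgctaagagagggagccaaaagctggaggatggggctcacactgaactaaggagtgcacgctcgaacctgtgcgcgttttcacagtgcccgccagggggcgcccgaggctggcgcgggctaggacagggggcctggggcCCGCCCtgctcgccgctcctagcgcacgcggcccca

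No motif was present in all 5 of these promoters. The GC box letters occurred in Cav1 (2 matches), Cav2 (2), Ptrf (1) and Ehd2 (2), and not in Sdpr. Sdpr also had the lowest GC content, 43.3% against 59.3% to 66.7% for the other promoters shown and a median of 52.7% over all promoters. The CCAAT box letters occurred once each in Cav2, Ptrf, Sdpr and Ehd2. Among these 5, the TATA box letters were found only in Cav1, on the opposite strand with the leftmost base at -221 from the gene's start, and the TEAD letters only in Ptrf, at -247. Over all 27025 RefSeq promoters of this length, 35.9% held the letters of the GC box, 37.9% those of the CCAAT box, 14.2% those of the TATA box, 16.04% those of the nuclear receptor site and 14.6% those of the TEAD site. A match is a description of the letters and not a site of binding.

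In the mm9 build used for the deposited tables, Cav1 (chr6:17256335-17291452, + strand, 7 exons) and Cav2 (chr6:17231185-17239115, + strand, 3 exons) are neighbours, with 17219 bases between the end of Cav2 and the start of Cav1. Cav3 lies further along the same chromosome (chr6:112409495-112422866). Ptrf is at chr11:100818047-100832201, Sdpr at chr1:51345967-51359804, Prkcdbp at chr7:112629121-112630711 and Ehd2 at chr7:16532315-16552916. All 7 genes are protein-coding in the annotation, and the counts were over whole transcripts. Ptrf, Prkcdbp and Ehd2 each have a second deposited row of the same symbol on the opposite strand, which overlaps the row used here by 999, 271 and 2983 bases. The library kit was not stated to mark strand, so reads from such a pair of rows cannot be told apart where they overlap.

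Levels are given as reads per kilobase of transcript, scaled to the reads of the library (RPKM), which can be compared between genes. The libraries held 24655056 to 42518483 reads on annotated rows, and the 6 members other than Cav3 drew between 180 and 98663 reads each in any library.

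Cav1, the principal caveolin outside muscle, had the highest level of the 7 genes in each tissue. In iWAT adipocytes its RPKM ran from 723.1 over a median of 798.2 to 921.4, in eWAT adipocytes from 157.1 over 355.0 to 453.4, and in BAT from 203.2 over 224.8 to 249.3. The means ranked 35th, 117th and 131st among the 36275, 36990 and 36235 symbols with a read in iWAT, eWAT and BAT. The iWAT libraries all lay above those of eWAT and BAT, and the BAT libraries lay within the range of eWAT.

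Cav2, which forms mixed oligomers with Cav1, was read at 190.3, 226.7 and 246.9 RPKM (lowest, median, highest) in iWAT, at 69.8, 106.5 and 126.8 in eWAT, and at 43.7, 52.6 and 62.8 in BAT. The 3 groups of RPKM values did not overlap, although eWAT and BAT did with the scaling between libraries described below. Ptrf, which encodes the cavin needed for the coat to form, was read at 260.2, 272.7 and 319.8 in iWAT, 70.3, 140.0 and 183.9 in eWAT, and 46.9, 52.8 and 75.7 in BAT. For Ptrf the iWAT libraries stood above all the rest, and eWAT and BAT overlapped.

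Sdpr, whose product favours curvature of the membrane, was the steadiest of the genes in iWAT, where it ran from 219.5 over 233.6 to 242.9 RPKM. It was read at 47.1, 90.5 and 121.4 in eWAT and at 60.2, 74.5 and 80.5 in BAT. Ehd2, the ATPase of the caveolar neck, was read at 171.0, 193.8 and 214.3 in iWAT, 35.2, 76.1 and 102.5 in eWAT, and 49.8, 59.6 and 73.0 in BAT. Both genes had the order of Cav1, with iWAT above the other tissues and BAT inside the range of eWAT.

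Prkcdbp, a cavin first described as a protein that binds protein kinase C delta, had another pattern. It was read at 191.9, 238.1 and 250.0 RPKM in iWAT and at 44.3, 100.1 and 124.8 in eWAT, levels close to those of Sdpr. In BAT it was read at 7.12, 9.40 and 10.9, from 180 to 395 reads a library, below every white library. The second, opposite-strand row of Prkcdbp, which overlaps the first by 271 of its 1082 bases, drew 1206 to 1645 reads in iWAT, 313 to 777 in eWAT and 24 to 106 in BAT.

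**Figure D1:**
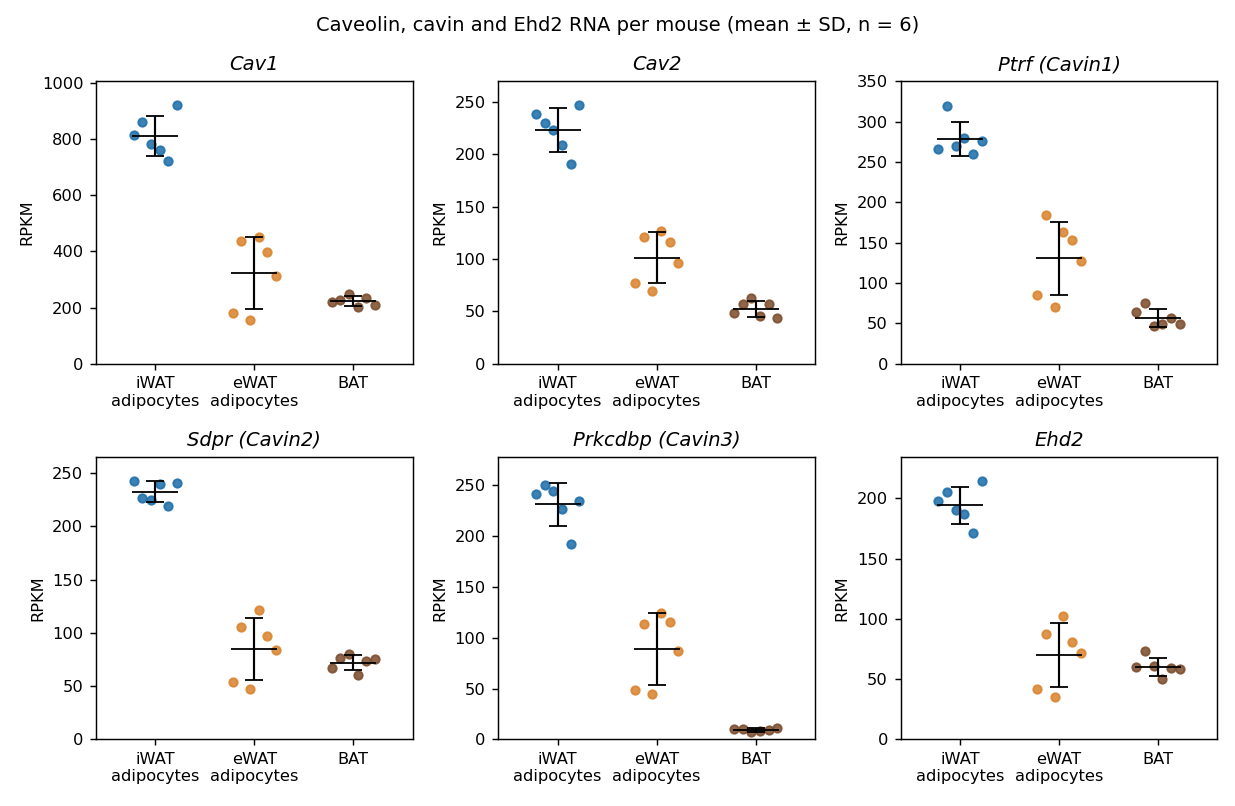
RPKM (vertical axes, from 0) of the 6 genes other than Cav3 in each library, grouped by tissue, with points for single mice and bars for the mean ± SD (n = 6). The iWAT points lie above those of both other tissues in all 6 panels, and Prkcdbp in BAT lies between 7.12 and 10.9.

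Summed over these 6 genes, the level was 1970.0 ± 137.5 RPKM in iWAT, 798.2 ± 286.8 in eWAT and 474.9 ± 38.8 in BAT (mean ± SD, n = 6 each). These levels carry no scaling beyond the reads of the library. The scaling used in the tests below raised the levels in BAT relative to the white adipocytes. Cav1 made up 41.1% ± 1.11, 39.8% ± 2.15 and 47.2% ± 1.90 of the sum. Prkcdbp made up 11.75% ± 0.665 and 10.98% ± 0.732 of it in the white adipocytes and 1.96% ± 0.364 in BAT. The levels of Ptrf and Ehd2, and thus their shares and their ratios to Cav1, rest on the choice of 1 row per symbol. With both rows of a symbol summed, the mean RPKM in iWAT, eWAT and BAT went from 278.4, 130.4 and 56.8 to 495.5, 228.2 and 97.8 for Ptrf, and from 194.1, 69.8 and 60.2 to 356.1, 128.0 and 113.6 for Ehd2. For Prkcdbp they went up by less than 1.5 times in each tissue.

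Cav3, the muscle caveolin, was read 0 or 1 time in each iWAT library, 0 to 2 times in each eWAT library and 0 to 4 times in each BAT library. These counts are too low for a fold change, and Cav3 did not pass the filter for testing. The BAT libraries with 4 and 3 reads, mice 1 and 5, also had the highest summed RPKM of 8 skeletal muscle markers, 93.8 and 118.7, and mouse 16, with 1 read, had the next, 84.0. The other 3 BAT libraries, at 1.67 to 65.8, had no Cav3 read. Over the 6 BAT libraries Pearson's r was 0.65 (exact permutation p = 0.0917, adjusted p = 0.236 over 36 relations) and Spearman's rho was 0.941 (exact permutation p = 0.0167, adjusted p = 0.075). Neither passed after adjustment, and r was 0.92 without the 2 libraries farthest from the median marker sum. The cavin of muscle, Murc (now Cavin4), had 22 to 41 reads in each BAT library (0.428 to 0.817 RPKM), including 38 in mouse 2, whose muscle marker sum was 1.67.

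The first comparison asks how the white depots differ. Tests between tissues used edgeR's quasi-likelihood method on the read counts with TMM scaling, fitted over every gene whose mean count reached 10, and adjusted p-values are Benjamini-Hochberg values over all genes tested. All 6 members tested were higher in iWAT than in eWAT adipocytes, against 34.1% of all 19623 genes tested. Their median log2 fold change was 1.36, against 0.00 over all genes. Nor did the RPKM values of the depots overlap for any of the 6, which held in this direction for 21.2% of all genes.

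Ehd2 and Sdpr had the largest differences between the white depots, with log2 fold changes of 1.48 ± 0.23 (SE, 2.79-fold, edgeR adjusted p = 0.0001) and 1.46 ± 0.21 (2.75-fold, adjusted p = 4.5e-05). Prkcdbp followed at 1.39 ± 0.24 (adjusted p = 0.00025) and Cav1 at 1.33 ± 0.25 (adjusted p = 0.00041). Cav2 and Ptrf had the smallest differences, 1.15 ± 0.16 (adjusted p = 3.2e-05) and 1.10 ± 0.21 (adjusted p = 0.00048). The intervals of ± SE overlapped among the 6 genes. Because the genes share libraries, this overlap does not show that their differences were alike. Ratios to Cav1 within a library, given below, compare them more directly. Lanes 1 and 2 held libraries of both depots, and the log2 differences were 0.98 to 1.43 within lane 1 (2 iWAT and 4 eWAT libraries) and 1.35 to 1.83 within lane 2 (4 and 2), with no overlap for any gene.

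Adipocyte and endothelial markers moved with the members. All 6 adipocyte markers were higher in iWAT than in eWAT, and their summed RPKM was 11300.4 to 15792.2 in iWAT against 2539.6 to 7854.0 in eWAT. All 8 endothelial markers were also higher in iWAT, with sums of 214.6 to 612.8 against 73.1 to 172.5. The 6 macrophage markers were all higher in eWAT, with sums of 2564.2 to 4133.9 against 452.3 to 891.4. In such bulk samples, fewer cells of a type and less RNA per cell cannot be told apart. Expressed as a percentage of the adipocyte marker sum of the same library, Cav1 was 5.87% ± 0.455 in iWAT and 5.99% ± 0.501 in eWAT (SD, n = 6), and Prkcdbp 1.68% ± 0.157 and 1.65% ± 0.195. Fabp4 made up most of the marker sum, with means of 10486.5 of 13889.8 RPKM in iWAT and 4050.3 of 5376.4 in eWAT. For Cav1 and Prkcdbp the percentages of the depots overlapped. Those of Cav2 and Ptrf were 1.62% ± 0.153 and 2.02% ± 0.191 in iWAT and 2.01% ± 0.423 and 2.47% ± 0.178 in eWAT, and these were descriptions with no test. The part of each cell type in the differences between the depots was not tested.

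The 6 genes varied more between the eWAT libraries than between those of the other tissues. The coefficient of variation over 6 mice was 23.8% to 39.9% for the 6 genes in eWAT, against 4.29% to 9.29% in iWAT and 7.44% to 19.8% in BAT. Mice 3 and 1 had the lowest eWAT value for all 6 genes. Cav1, for example, was 157.1 and 181.3 RPKM in these libraries and 312.8 to 453.4 in the other 4, and Prkcdbp was 44.3 and 48.7 against 86.9 to 124.8.

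Within eWAT, Cav1 rose and fell with each of Cav2, Ptrf, Sdpr, Prkcdbp and Ehd2 across the 6 mice. Pearson's r on log2(RPKM + 0.1) was 0.989 to 0.996 for the 5 pairs (exact permutation p = 0.00139 to 0.00278, all adjusted p = 0.0167 over 36 relations, the smallest p the design allows being 0.00139). Spearman's rho was 0.943 to 1.0, with 3 of 5 passing after adjustment. Without the 2 libraries farthest from the median of Cav1, mice 1 and 3, r over the remaining 4 was 0.905 to 0.996. The points of such a relation share a library and its scaling. In iWAT, r ranged from 0.474 to 0.975 and only Ehd2 passed with Cav1 (r = 0.975, rho = 1.0, exact permutation p = 0.00278 for both, adjusted p = 0.0167 and 0.025). In BAT, r ranged from -0.434, for Prkcdbp, to 0.938, for Cav2, and only Cav2 passed by r (exact permutation p = 0.00833, adjusted p = 0.0429) and none by rho.

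The eWAT libraries of mice 1 and 3 also had the lowest adipocyte marker sums, 3468.5 and 2539.6 against 5126.7 to 7854.0, and the highest macrophage marker sums, 4133.9 and 4063.6 against 2564.2 to 2821.4. Over the 6 eWAT libraries, r between the adipocyte marker sum and each of the 6 genes was 0.965 to 0.995 (exact permutation p = 0.00139 to 0.00556, adjusted p = 0.02 to 0.0286 over 36 relations with adipocyte or macrophage markers, chosen after the values were seen). Spearman's rho was 0.829 to 1.0 and did not pass after adjustment, and r was 0.791 to 0.974 without the 2 libraries farthest from the median marker sum on the log2 scale, mice 1 and 3. The macrophage sums of eWAT fell into separate clusters of 4 and 2 libraries, each too small for a correlation of its own, and no pooled correlation is given for them. In iWAT and BAT the corresponding r with adipocyte markers was 0.566 to 0.829 and -0.0287 to 0.319, with none passing. No member passed with the endothelial marker sum in any tissue. The closest was Prkcdbp in BAT (r = 0.905, rho = 0.886, exact permutation p = 0.0194 and 0.0333, adjusted p = 0.0778 and 0.12; r = 0.816 without the 2 libraries farthest from the median marker sum). Lanes held at most 4 libraries of a tissue, too few to repeat these relations within a lane. Without the eWAT libraries of mice 1 and 3, an alternative added after seeing the data, all 6 genes were still higher in iWAT, by log2 fold changes of 0.83 to 1.18.

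**Figure D2:**
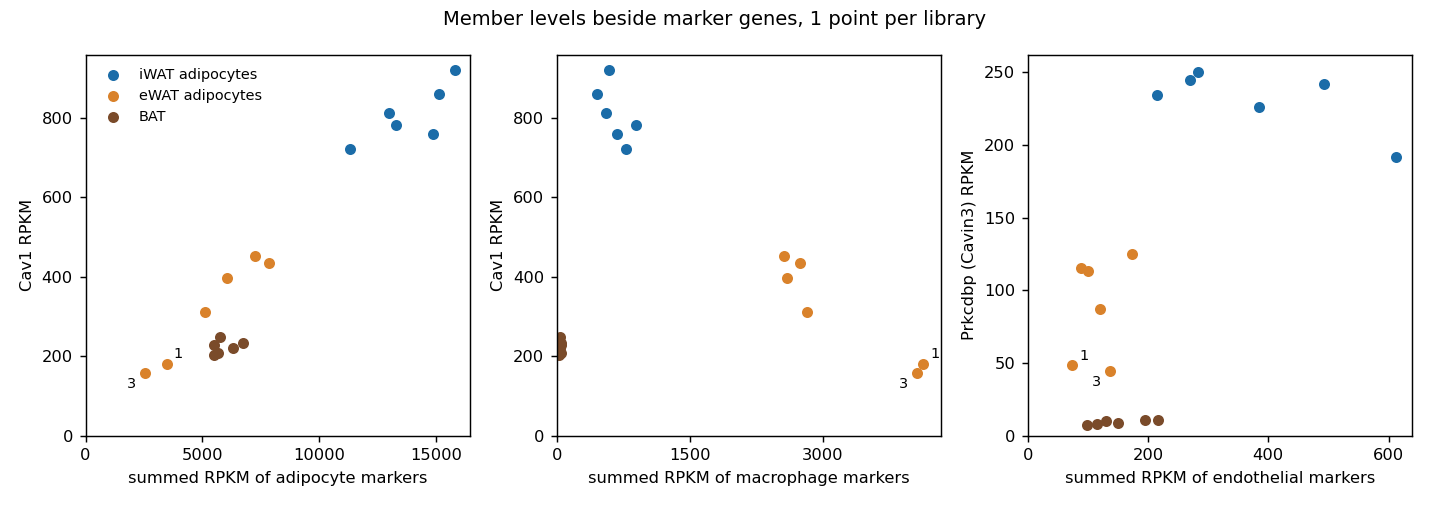
RPKM of Cav1 against the summed RPKM of 6 adipocyte markers (left) and 6 macrophage markers (middle), and RPKM of Prkcdbp against that of 8 endothelial markers (right), on linear axes, with 1 point per library coloured by tissue and the eWAT libraries of mice 1 and 3 numbered. Mice 1 and 3 are lowest in adipocyte markers and in Cav1 among the eWAT libraries, and the BAT points for Prkcdbp stay at 10.9 RPKM or less at endothelial marker sums of 98.3 to 217.1.

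The comparison of iWAT adipocytes with BAT asks how white fat cells differ from brown fat. All 6 members tested were higher in iWAT, against 38.1% of all 19745 genes tested, and the groups did not overlap in RPKM, which held in this direction for 51.8% of all genes. The 6 log2 fold changes had a median of 1.36, against 0.01 over all genes. Prkcdbp had by far the largest, 4.04 ± 0.12 (SE, edgeR adjusted p = 3.6e-13), with 389 of the 19745 genes above it. Ptrf followed at 1.69 ± 0.11 (adjusted p = 2.2e-09) and Cav2 at 1.48 ± 0.11 (adjusted p = 8e-09). Cav1, Ehd2 and Sdpr differed by 1.25 ± 0.11, 1.09 ± 0.09 and 1.08 ± 0.08, with adjusted p-values of 3.1e-08, 4e-08 and 1e-08 from the same edgeR fit.

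In the comparison of eWAT adipocytes with BAT the members split. Prkcdbp was higher in eWAT by a log2 fold change of 2.67 ± 0.25 (SE, 6.38-fold, edgeR adjusted p = 6.7e-08), Ptrf by 0.61 ± 0.21 (adjusted p = 0.012) and Cav2 by 0.36 ± 0.15 (adjusted p = 0.041). This made 3 of 6 members, against 41.1% of all 20076 genes tested, and the RPKM values did not overlap for Cav2 and Prkcdbp, which held in this direction for 49.2% of all genes. Cav1, Sdpr and Ehd2 did not pass, with log2 fold changes of -0.07 ± 0.23, -0.36 ± 0.19 and -0.37 ± 0.21 and adjusted p-values of 0.79, 0.10 and 0.11. The Cav2 call was lost on leaving out any 1 of 8 libraries (mice 2, 4 and 5 of eWAT and all BAT mice but 5), with log2 fold changes of 0.29 to 0.35. Sdpr and Ehd2 passed as higher in BAT without the eWAT library of mouse 4, at -0.48 and -0.51 (adjusted p = 0.029 and 0.033). Without the low eWAT libraries of mice 1 and 3, the values were 0.26 for Cav1 (adjusted p = 0.056), -0.07 for Sdpr and Ehd2, 0.56 for Cav2, 0.90 for Ptrf and 3.0 for Prkcdbp, with the same 3 genes past the threshold.

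The scaling between libraries bears on both comparisons with BAT. The 10 rows with the most reads took 43.59% to 54.26% of the reads in BAT libraries and 9.94% to 20.47% in the others, and the mean TMM factors were 1.21 in iWAT, 1.27 in eWAT and 0.658 in BAT. Without TMM scaling the median of all genes on the log2 scale moved to 0.87 for iWAT over BAT and 0.89 for eWAT over BAT. All 6 members then passed as higher in iWAT than in BAT, by log2 fold changes of 1.94 to 4.89, and all 6 as higher in eWAT than in BAT, by 0.53 to 3.58. Of all genes called, 13703 of 16757 were then higher in iWAT and 12965 of 17026 in eWAT, whereas with TMM scaling the numbers were 7528 of 14864 and 8243 of 16561. For Cav1, Sdpr and Ehd2 the direction between eWAT and BAT thus turned with the scaling, while Prkcdbp, Ptrf and Cav2 were higher in eWAT either way. The RPKM levels given earlier have no TMM scaling. With it, mean Cav1, Sdpr and Ehd2 were 285.7, 75.0 and 61.8 RPKM in eWAT and 304.6, 97.9 and 81.5 in BAT. Means of Cav2, Ptrf and Prkcdbp were 89.5, 115.3 and 78.7 in eWAT and 71.3, 76.8 and 12.5 in BAT. The Cav2 values then overlapped, at 60.2 to 113.6 in eWAT and 59.1 to 88.1 in BAT.

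**Figure D3:**
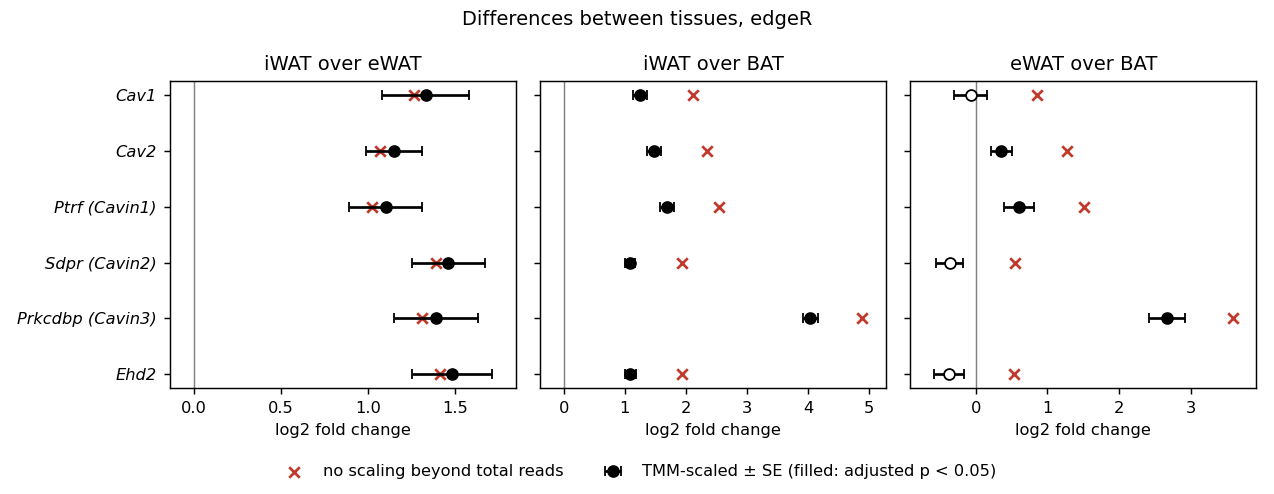
Log2 fold change (horizontal axis) of the 6 members in the 3 comparisons, with TMM scaling (circles with SE bars, filled where the adjusted p is below 0.05) and without scaling beyond the total count (crosses). Crosses and circles nearly coincide for iWAT over eWAT and lie apart in the comparisons with BAT, where Prkcdbp has the largest value under both.

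Ratios within a library do not depend on the scaling. Each gene's RPKM was therefore divided by that of Cav1 in the same library and compared by a two-sided exact permutation test over the 924 splits of 6 against 6, whose smallest p is 0.00216, with adjustment over 15 tests. Prkcdbp stood at 0.286 ± 0.0218 of Cav1 in iWAT and 0.276 ± 0.0107 in eWAT (SD, n = 6), and at 0.0417 ± 0.0083 in BAT. The BAT ratio was 6.97-fold below that of iWAT and 6.73-fold below that of eWAT (exact permutation p = 0.00216, adjusted p = 0.00464 for both), with no overlap in either. Against Sdpr, the cavin it equalled in white adipocytes (0.996 ± 0.0872 in iWAT and 1.03 ± 0.102 in eWAT), Prkcdbp was at 0.129 ± 0.0243 in BAT.

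The ratios of the other genes moved less. Ptrf was at 0.345 ± 0.0275 of Cav1 in iWAT, 0.415 ± 0.0408 in eWAT and 0.255 ± 0.0498 in BAT, lower in BAT than in iWAT by 1.37-fold (exact permutation p = 0.00649, adjusted p = 0.00974) and than in eWAT by 1.65-fold (exact permutation p = 0.00216, adjusted p = 0.00464). Cav2 was at 0.275 ± 0.012, 0.338 ± 0.0755 and 0.234 ± 0.018, also lowest in BAT, by 1.18-fold and 1.42-fold (both exact permutation p = 0.00216, adjusted p = 0.00464). Its iWAT-to-eWAT difference (exact permutation p = 0.0303, adjusted p = 0.0375) rested on the low eWAT libraries, mice 1 and 3, at ratios of 0.424 and 0.444 against 0.279 to 0.308 in the other 4. Without those 2 libraries the log2 difference was -0.08 (exact permutation, adjusted p = 0.128), against -0.27 with them, and it did not pass on leaving out any 1 of the 6 iWAT libraries either, at -0.29 to -0.26.

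Sdpr and Ehd2 were instead highest relative to Cav1 in BAT. Sdpr was at 0.288 ± 0.022 in iWAT, 0.270 ± 0.0243 in eWAT and 0.322 ± 0.023 in BAT (exact permutation p = 0.0325 against iWAT and 0.00433 against eWAT, adjusted p = 0.0375 and 0.00812), and the difference from iWAT did not pass on leaving out any 1 of 8 libraries (mice 1, 2, 3 and 16 of iWAT, and 2, 5, 17 and 18 of BAT), at log2 differences of -0.17 to -0.13. Ehd2 was at 0.240 ± 0.00492, 0.219 ± 0.0137 and 0.269 ± 0.0288 (exact permutation p = 0.00649 and 0.00216, adjusted p = 0.00974 and 0.00464). Between the white depots, Ptrf relative to Cav1 was lower in iWAT by a log2 difference of -0.27 ± 0.08 (SE, exact permutation p = 0.00866, adjusted p = 0.0118), with overlap, and Ehd2 was higher in iWAT by 0.13 ± 0.04 (exact permutation p = 0.00216, adjusted p = 0.00464), with none. The log2 ratio of Prkcdbp to Cav1 differed there by 0.05 ± 0.05 (SE, exact permutation p = 0.338) and that of Sdpr by 0.10 ± 0.07 (exact permutation p = 0.19), neither larger than the spread between libraries. In all, 13 of the 15 tests passed and 7 had no overlap. Ratios of genes outside the set to Cav1 were not tested. These counts therefore have no share over all genes beside them and do not set the members apart.

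**Figure D4:**
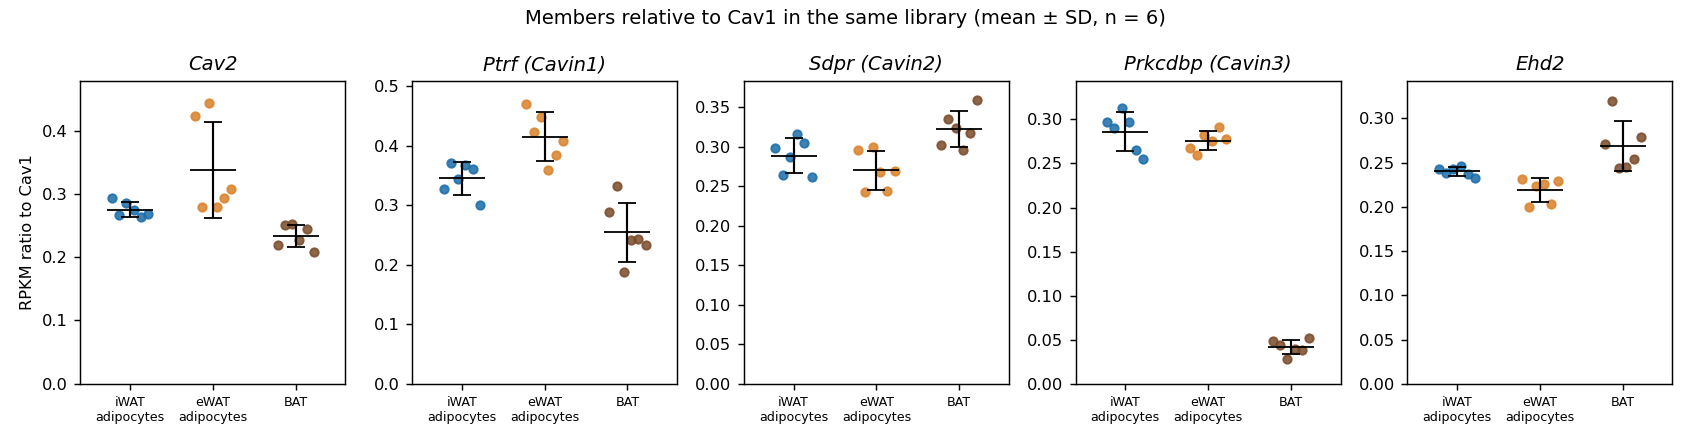
RPKM of each gene divided by the RPKM of Cav1 in the same library (vertical axes, from 0), by tissue, with points for single mice and bars for the mean ± SD (n = 6). Prkcdbp falls from about 0.286 in iWAT to 0.0417 in BAT, and the BAT values of Sdpr and Ehd2 lie at or above most white ones.

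In BAT, endothelial marker sums ran from 98.3 to 217.1 RPKM, within or above the eWAT range of 73.1 to 172.5, and adipocyte marker sums from 5486.8 to 6737.2, inside the eWAT range. By edgeR's test with TMM scaling, 7 of 8 endothelial markers were higher in BAT than in eWAT and none was higher in eWAT. The adipocyte markers split. Plin1, Fabp4 and Pparg were higher in BAT (log2 fold changes of eWAT over BAT -1.35, -0.92 and -1.65) and Lep higher in eWAT (1.77). Adipoq and Cidec did not pass. Prkcdbp was 0.157% ± 0.0274 of the adipocyte marker sum in BAT, and Cav1 3.81% ± 0.357 (SD, n = 6). Fabp4 made up most of that sum, with a mean of 5087.5 of 5904.5 RPKM in BAT. Mean Cav1 and Adipoq were 810.4 and 1127.0 RPKM in iWAT, 322.9 and 386.9 in eWAT, and 223.9 and 221.3 in BAT. Relative to Adipoq, Cav1 was thus not lower in BAT, and its direction depended on the marker used. Prkcdbp, with means of 231.5, 88.9 and 9.25, was lower in BAT relative to Adipoq too. Of the 6 macrophage markers all were lower in BAT than in eWAT, with sums of 24.5 to 48.4. The 5 brown adipocyte markers had sums of 2915.3 to 4274.3 in BAT and at most 49.7 in a white library. The part of these cells in the differences of the members was not tested.

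Most other genes of the caveola machinery did not follow the members between the white depots. The list held 13 genes, namely Murc, the membrane-bending Pacsin1, Pacsin2 and Pacsin3, the EHD2 relatives Ehd1, Ehd3 and Ehd4, the fission GTPase Dnm2, and the binding partners or regulators Nostrin, Ror1, Flna, Abl1 and Src. Between the white depots 2 of 12 tested were higher in iWAT and 8 higher in eWAT (34.1% and 34.5% of all genes), with a median log2 fold change of -0.36, the opposite sign to that of the members. The 2 higher in iWAT were Pacsin3 (1.66 ± 0.25, SE) and Ehd3 (1.56 ± 0.21), with edgeR adjusted p-values of 7.6e-05 and 2.4e-05. Those higher in eWAT were Ehd4 (-1.72), Nostrin (-1.51), Pacsin1 (-1.31), Flna (-1.26), Src (-0.80), Ehd1 (-0.35), Pacsin2 (-0.30) and Dnm2 (-0.27), while Ror1 (-0.38 ± 0.33) and Abl1 (-0.05 ± 0.10) did not pass. The mean macrophage marker sum was also higher in eWAT, 3154.0 RPKM against 660.0 in iWAT and 39.6 in BAT. The part of each cell type in the differences of this list was not tested.

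Within the EHD family, Ehd2 and Ehd3 were thus higher in iWAT, and Ehd1 and Ehd4 in eWAT. Mean RPKM was 194.1 in iWAT and 69.8 in eWAT for Ehd2, 5.21 and 1.77 for Ehd3, 49.8 and 63.8 for Ehd1, and 18.7 and 61.6 for Ehd4. Without TMM scaling the list again had 2 genes higher in iWAT and 8 in eWAT, and the log2 fold changes of Ehd3, Ehd1 and Ehd4 were 1.49, -0.43 and -1.8.

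Against BAT, 7 of 12 genes of this list were higher in iWAT and 1 in BAT (38.1% and 37.2% of all genes), and 10 of 13 were higher in eWAT and 2 in BAT (41.1% and 41.4% of all genes). Ehd3 had values near those of Ehd2, 1.31 in iWAT over BAT and -0.23 in eWAT over BAT, the latter not past the threshold and turning to 0.68 without scaling. Ehd4 had log2 fold changes of 2.51 and 4.26, Flna, which links caveolae to actin, 1.81 and 3.09, and Src, the kinase that phosphorylates Cav1, 1.96 and 2.79, each past the edgeR threshold in both. Pacsin1 was higher in eWAT than in BAT by 3.65 and was not tested between iWAT and BAT. Murc was lower in iWAT by a log2 fold change of -1.81 ± 0.28 and in eWAT by -3.37 ± 0.26 (edgeR adjusted p = 2.8e-05 and 9.3e-09), at mean levels of 0.22, 0.0723 and 0.515 RPKM in iWAT, eWAT and BAT. Skeletal muscle markers were also higher in BAT, 8 of 8 against each white depot, and macrophage markers were lower there, 6 of 6 against each. The part of muscle cells and macrophages in these differences was not tested. Pacsin3, the muscle-rich member of its family, was higher in BAT than in eWAT (-1.68) and did not differ past the threshold from iWAT (-0.04 ± 0.14). Without TMM scaling 11 of 12 and 11 of 13 were higher in the white adipocytes, Murc stayed higher in BAT in both, and Pacsin3 turned to higher in iWAT (0.82) and stayed higher in BAT than in eWAT (-0.77).

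**Figure D5:**
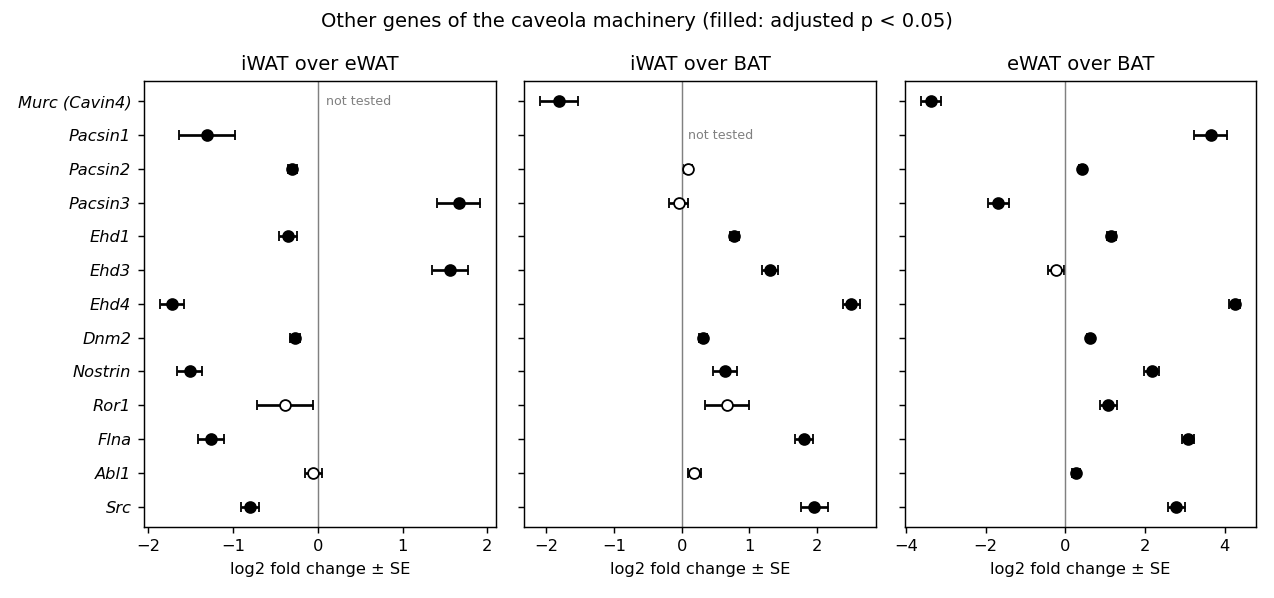
Log2 fold change ± SE (horizontal axis, TMM scaling) of the 13 other genes of the caveola machinery in the 3 comparisons, filled where the edgeR adjusted p is below 0.05. For iWAT over eWAT 8 genes lie to the left of 0 and past the threshold, with Ehd4 at -1.72, and Pacsin3 and Ehd3 to the right.

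Among 8 genes whose proteins are found in caveolae of adipocytes or endothelium, 4 were higher in iWAT than in eWAT and 1 in eWAT, against 34.1% and 34.5% of all genes. The largest differences were in Slc2a4, the insulin-regulated glucose transporter GLUT4 (1.92 ± 0.31, SE, edgeR adjusted p = 0.00013), and Nos3, the endothelial nitric oxide synthase (1.56 ± 0.23, adjusted p = 5.2e-05). Cd36, the fatty acid translocase, was higher in eWAT (-0.36 ± 0.11, adjusted p = 0.011). Slc2a4 was lower in iWAT and in eWAT than in BAT, by -2.19 and -4.10 on the log2 scale, opposite to Prkcdbp, and stayed so without scaling (-1.33 and -3.17). Plvap, the diaphragm protein of endothelial caveolae, was higher in iWAT and eWAT than in BAT, by 2.18 and 1.83. Scarb1, the HDL receptor, was higher in iWAT than in BAT by 1.43 and Cd36 higher in eWAT than in BAT by 1.26. Nos3 was higher in BAT than in eWAT (-0.99), which was not past the threshold without scaling (-0.08).

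The 3 raft scaffold genes and the 12 clathrin coat genes were taken as other membrane systems. Flot1 and Flot2, the flotillins, were higher in iWAT than in eWAT by 0.79 and 0.29, and Stom, encoding stomatin, was higher in eWAT (-0.28). Against BAT, Flot1 was higher in iWAT (0.88), and Stom and Flot2 were lower in iWAT (-1.10 and -0.58) and in eWAT (-0.80 and -0.85). Without scaling, Flot1 stayed higher in iWAT than in BAT (1.72) and Stom lower (-0.23, edgeR adjusted p = 0.047), Flot2 turned to 0.27, and the eWAT values of Stom and Flot2 were 0.12 and 0.06, not past the threshold. Of the 12 clathrin genes, 2 were higher in iWAT than in eWAT (Epn2 at 1.54 and Cltb at 0.39) and 9 higher in eWAT, with the adaptors Dab2 (-1.72) and Ap2m1 (-0.90) the largest. Against BAT 9 of 12 were higher in iWAT (38.1% of all genes), led by Dab2 (1.39) and Clta (1.28), and 10 of 12 in eWAT (41.1% of all genes), led by Dab2 (3.14) and Clta (2.1). Without scaling these counts were 12 of 12 and 11 of 12. Epn1 was higher in BAT than in iWAT (-0.29, turning to 0.56 without scaling) and Epn2 higher in BAT than in eWAT (-1.38). The part of each cell type in the differences of the raft and clathrin genes was not tested.

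The genes most like each member over the 18 libraries were ranked by Pearson's r of log2(TMM-scaled RPKM + 0.1) among 13855 genes with a mean of at least 1 RPKM, as a description in which the 3 tissues set most of the spread. Sdpr and Ehd2 were close to each other (r = 0.992, second in both rankings), and Parva, which encodes the focal adhesion protein alpha-parvin, led both (r = 0.996 and 0.995), followed after that pair by Nedd4, a ubiquitin ligase (0.989 and 0.992). Nearest to Cav1 were Pla2g16 (0.991), Aoc3 (0.989) and Raver2 (0.984). Aoc3, an amine oxidase of the adipocyte surface, was at 247.0 ± 39.4, 93.0 ± 41.9 and 68.3 ± 5.23 RPKM in iWAT, eWAT and BAT. Cav1 had r = 0.979 with both Sdpr and Ehd2, and 0.929, 0.896 and 0.681 with Cav2, Ptrf and Prkcdbp.

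Prkcdbp had other neighbours. Its r with the other members was 0.908 with Ptrf, 0.865 with Cav2 and 0.567 with Ehd2. The genes nearest to it were Adamts5, a matrix protease (0.996), Olfml1 (0.996) and Slc13a4, a sulfate transporter (0.994). Adamts5 was at 55.9 ± 8.23 RPKM in iWAT, 23.0 ± 9.71 in eWAT and 2.62 ± 0.345 in BAT. Ptrf was nearest to Sparc and Mcam (both 0.982) and to the lipid droplet gene Plin4 (0.981), and Cav2 to Ywhaq (0.986), Ywhab (0.984) and LOC100503129 (0.984). LOC100503129 drew nearly as many reads as Ywhaq in each tissue, for example 7705 to 9149 against 7741 to 9210 in iWAT. They may therefore not be separate neighbours, and whether they share reads was not tested.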

How the data were processed

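RNA from 18 libraries of HFD-fed male mice was sequenced, 6 each of iWAT adipocytes, eWAT adipocytes and BAT. The labels give the strain as C57BL/6, and groups came from the titles. Per the labels, the submitters' processing notes name cutadapt 1.16, HISAT2 2.1.0 and the mm9 build. The program, annotation and treatment of multiply mapped reads behind the deposited read counts were not given in the sources used here. The deposited RPKM values were made by the authors from these counts per kilobase of transcript and reads of the library. Each of the 18 tables held 53445 rows and 52093 symbols, and of the 1220 symbols with several rows the row with the highest mean RPKM was used. Libraries of 1 tissue differed by far more than sampling noise (lowest chi-square per degree of freedom 14.29), so none was counted as a repeat, and the libraries of a tissue carry different mouse numbers in their titles.

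Counts were fitted with edgeR 4.0.16 in R 4.3.3 (TMM, quasi-likelihood test, mean count of at least 10, the 12 libraries of each comparison), and calls used an adjusted p below 0.05. SE is the log2 fold change divided by the square root of the F statistic. Ratios and correlations used exact permutation tests on log2 RPKM, with 0.1 added for correlations. These were coded directly in Python 3.11.15, with ranks from scipy 1.17.1. TMM-scaled RPKM was recomputed from the counts per kilobase of transcript, scaled to the reads on the rows used times the TMM factor over all 18 libraries. Alternatives were DESeq2 1.42.0, limma 3.58.1 on log2(RPKM + 0.1) or log2(RPKM + 1), no scaling, no filter, sums over rows of a symbol, lane, mouse number, all 18 libraries and each library left out. The edgeR step was tested on simulated counts. Genes named were the 7 members, all genes of the machinery list, the 2 genes with the largest change in each direction in the other lists and the 3 nearest genes of each member. The members, though set by symbol, and the lists were chosen with earlier results of these data known. The total was 26768529 to 30166441 reads per iWAT library, 24655056 to 37438994 per eWAT library and 27402247 to 42518483 per BAT library, and intervals of counting error would not include PCR duplicates. Promoters came from RefSeq (GRCm38.p6), a build other than that of the tables, and no coordinate was converted.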

Additional observations from a re-analysis of the deposited data

Results flagged for a closer look

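Among the 36 groups of 6 libraries examined (the RPKM of the 7 genes and 5 ratios to Cav1, in 3 tissues), 1 had a library far from the others by Dixon's test, where chance would give about 1.8. Ptrf in the iWAT library of mouse 2 was at 319.8 RPKM, against 260.2 to 279.3 in the other 5, a gap of 0.679 of the whole range.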

How the results depend on the processing

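The higher level of all 6 tested members in iWAT than in eWAT and than in BAT kept its direction and its side of the threshold under every alternative run. Summing the rows of a symbol raised the levels of Ptrf and Ehd2 by more than 1.5 times and changed no call on a member or ratio. The eWAT-to-BAT results for Cav1, Cav2, Sdpr and Ehd2 changed direction or side of the threshold under some alternatives, and the cause was not tested. Without scaling, 6 members were called between eWAT and BAT, all higher in eWAT, and Cav1, Sdpr and Ehd2 turned to 0.85, 0.55 and 0.53 (log2). With limma on log2(RPKM + 0.1) they were 0.42, 0.16 and 0.12, and on log2(RPKM + 1) 0.41, 0.16 and 0.12, a scale that understates changes of low genes. Cav1 also turned to 0.03 without the filter, to 0.06 and 0.08 without the eWAT library of mouse 1 or 3, and to 0.26 without both. Leaving out 1 library in turn, the log2 fold changes from eWAT to BAT ranged from -0.18 to 0.08 for Cav1, 0.29 to 0.45 for Cav2, -0.48 to -0.23 for Sdpr and -0.51 to -0.23 for Ehd2, with 2 to 4 members called. Of the ratios to Cav1, that of Cav2 between the white depots ranged from -0.32 to -0.19 and that of Sdpr between iWAT and BAT from -0.19 to -0.13 on leaving out 1 library, and neither passed in all of these. The Cav2 ratio was -0.08 without the eWAT libraries of mice 1 and 3. With TMM-scaled RPKM, the correlation of Cav2 with Cav1 was 0.938 in iWAT, which then passed, and 0.869 in BAT, which did not. With the same values, Ptrf with Cav1 in BAT turned to -0.424, and Ehd2 with endothelial markers in BAT to -0.548.

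Mouse numbers recur in the titles of different tissues, and the labels do not say that the same number is the same animal. Deviations from the group means correlated at -0.0113, -0.0109 and 0.0154 on average for same-numbered libraries, and 1 of 6, 1 of 4 and 2 of 4 correlated best with their own number. A fit with mouse numbers as a replicate block used only the libraries whose number occurred in both tissues. That left 6, 4 and 4 numbers for iWAT over eWAT, iWAT over BAT and eWAT over BAT. In this order 12836, 12486 and 15146 genes were called, against 13454, 14864 and 16561 in the main fits. In the comparisons with BAT, the effect of the block cannot be told apart from that of the libraries left out. All 6 members were again called in the first 2 comparisons. From eWAT to BAT 4 members were called, with Cav2 at 0.31 (adjusted p = 0.068), Sdpr at -0.39 (0.041) and Ehd2 at -0.45 (0.033).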

Other observations

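Mural cells also carry caveolae, and 5 of 6 mural markers were higher in iWAT than in eWAT, with summed levels of 88.6 to 260.8 against 29.9 to 69.2 RPKM. In BAT the mural sum was 103.8 to 147.7 RPKM, and 5 of the 6 were higher there than in eWAT by edgeR's test. Fibroblast and progenitor markers differed less, with 1 of 5 higher in iWAT than in eWAT and 4 not past the threshold. Mesothelial markers, whose cells line the abdominal cavity, were nearly confined to eWAT, at 0.43 to 2.65 RPKM against at most 0.0808 in iWAT and 0.0673 in BAT. Lymphocyte markers were low throughout, at 0.472 to 1.75 RPKM. The part of these cells in the levels of the caveolins and cavins was not tested.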
